A study of Homo sapiens with 60 samples.

Results

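The mRNAs described here encode 73 nuclear-encoded subunits of the respiratory chain and ATP synthase, out of 58395 genes in the count table. They were taken by name: 38 subunits of complex I (the NDUFA, NDUFB, NDUFC, NDUFS and NDUFV genes and NDUFAB1), 4 of complex II (SDHA to SDHD), 9 of complex III, 10 of complex IV and 12 of ATP synthase, also called complex V. All 73 symbols were found, and each passed the filter on low counts. The RNA came from HEK293A, a human embryonic kidney line, in 3 clones (C6, F7 and G6) that carry a knockout of TDP1, the enzyme that removes trapped topoisomerase 1 from DNA. Each clone was left untreated or was exposed for 5 to 5.5 hours to 0.1% DMSO, to 100 nM topotecan with 0.1% DMSO, to 5 µM of the compound OL9-119 in 0.1% DMSO, or to 100 nM topotecan with 5 µM OL9-119, for which the labels name no DMSO. With 4 biological replicates per clone and treatment there were 15 groups and 60 libraries, 12 per treatment. Every library carries the knockout, controls included, and each clone is a separately grown line, so clones are not replicates of a genotype and the knockout itself has no contrast here.

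Complexes I to IV pass electrons from NADH and succinate to oxygen in the inner mitochondrial membrane, and complexes I, III and IV pump protons as they do so. ATP synthase lets the protons flow back and makes ATP. Complex II is built from nuclear genes alone, while the other complexes join nuclear subunits to a few core proteins made from mitochondrial DNA. In complex I the electron path lies in the matrix arm (among others NDUFS1, NDUFS3 and NDUFV1), and most of the other nuclear subunits are small accessory proteins.

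Library totals ran from 4.62 to 20.9 M counts (median 11.4 M). HEK293-like markers were present, with 8 of 8 at a median of at least 1 CPM, the count scaled for library size, at 1420 to 2391 CPM in sum, while blood, fibroblast and hepatocyte markers summed to at most 7.54, 10.9 and 1.94 CPM in any library. TDP1 mRNA stood at 17.8 to 42.3 CPM, so its level does not check the knockout label. At a common depth of 4.5 M counts, 14 libraries (10 of C6 and 4 of G6) held fewer than 20000 detected genes. Their summed level of the 73 mRNAs was lower: 6038 to 7120 CPM against 6906 to 8423 CPM in the other 10 libraries of C6, and 5402 to 6408 CPM against 5813 to 7295 CPM in the other 16 of G6. These libraries fall in every treatment (3 DMSO, 3 OL9-119, 2 topotecan, 4 combination, 2 untreated), and their part in the results was not tested beyond the fits without them given below.

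Per kilobase of coding sequence, which leaves out untranslated ends, the most abundant member was COX7C of complex IV at 981 CPM per kb, followed in the other complexes by ATP5F1E of ATP synthase (857), UQCRH of complex III (661), NDUFA4 (426) and SDHC (214). NDUFA4 was named as a complex I subunit and is now known as a subunit of complex IV; it is kept here under its name. On the scale of counts, ATP5F1B, the catalytic beta subunit of ATP synthase, was highest at 802 CPM averaged over all libraries. The lowest levels went with gene annotation. In 12 members over 50% of the coding sequence is also exon of another annotated gene on the same strand, and none of those other genes averaged more than 1.03 CPM. The 4 with over 90% overlap were NDUFA7 (0.876 CPM), NDUFA13 (1.14 CPM), NDUFV2 (2.25 CPM) and UQCR11 (15.7 CPM); the 8 with 50 to 90% (NDUFA9, NDUFA11, NDUFB8, NDUFC2, SDHD, COX6A1, COX8A and ATP5PO) lay between 10.1 and 32.1 CPM; and the other 61 lay between 21.1 and 802 CPM (median 89.1 CPM). No source used here says how reads shared by overlapping genes were counted, and the levels of these 12 are uncertain. SDHA and UQCRH also have close copies: the pseudogenes SDHAP1, SDHAP3 and SDHAP4 averaged 16.4, 15.8 and 32.0 CPM, and UQCRHL averaged 10.9 CPM.

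OL9-119 was followed by lower levels of many subunit mRNAs. With edgeR's quasi-likelihood test and Benjamini-Hochberg adjustment over all 18985 genes tested, 25 of the 73 fell and 1 (NDUFV3) rose relative to DMSO, against a background of 9.47% of all genes called in either direction with 5% called lower and 4.47% higher. The median log2 change of the 73 was -0.17 and that of all genes 0.01, and 65 of the 73 estimates were below 0, against 47.3% of all genes. The changes were modest: the largest decrease was 28.5%, in NDUFB3. In bulk RNA, fewer cells with a transcript and less transcript per cell cannot be told apart.

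The decrease was found in all complexes, with unequal shares of their genes. The test called 9 of 38 genes lower in complex I (NDUFA4 included), 1 of 4 in complex II, 2 of 9 in complex III, 6 of 10 in complex IV and 7 of 12 in ATP synthase. Median log2 changes were -0.17, -0.15, -0.13, -0.16 and -0.19 in that order. The members with no coding overlap numbered 31, 3, 8, 8 and 11 in the same order and held all 26 called genes. The shares above also count the overlapped members, whose levels are uncertain. On the scale of summed CPM, where abundant mRNAs weigh most, complex IV had the largest decrease in each clone: its OL9-119 mean relative to its DMSO mean was -14.7% in C6, -14.3% in F7 and -14.3% in G6. Complex I gave -9.20%, -9.35% and -8.97%, and ATP synthase -10.4%, -9.65% and -12.0%. Complex III gave -11.1%, -6.95% and -7.86%, and complex II -9.60%, -3.74% and -5.74%. Summed complex IV mRNA was 1130 to 1317 CPM in the 4 DMSO libraries of C6 and 957 to 1188 CPM with OL9-119, which overlap. In F7 it was 1070 to 1132 CPM against 847 to 1051 CPM and in G6 1067 to 1219 CPM against 859 to 1052 CPM, with no overlap in either clone. These sums are given without a test, and no test of one complex against another was made.

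**Figure D1:**
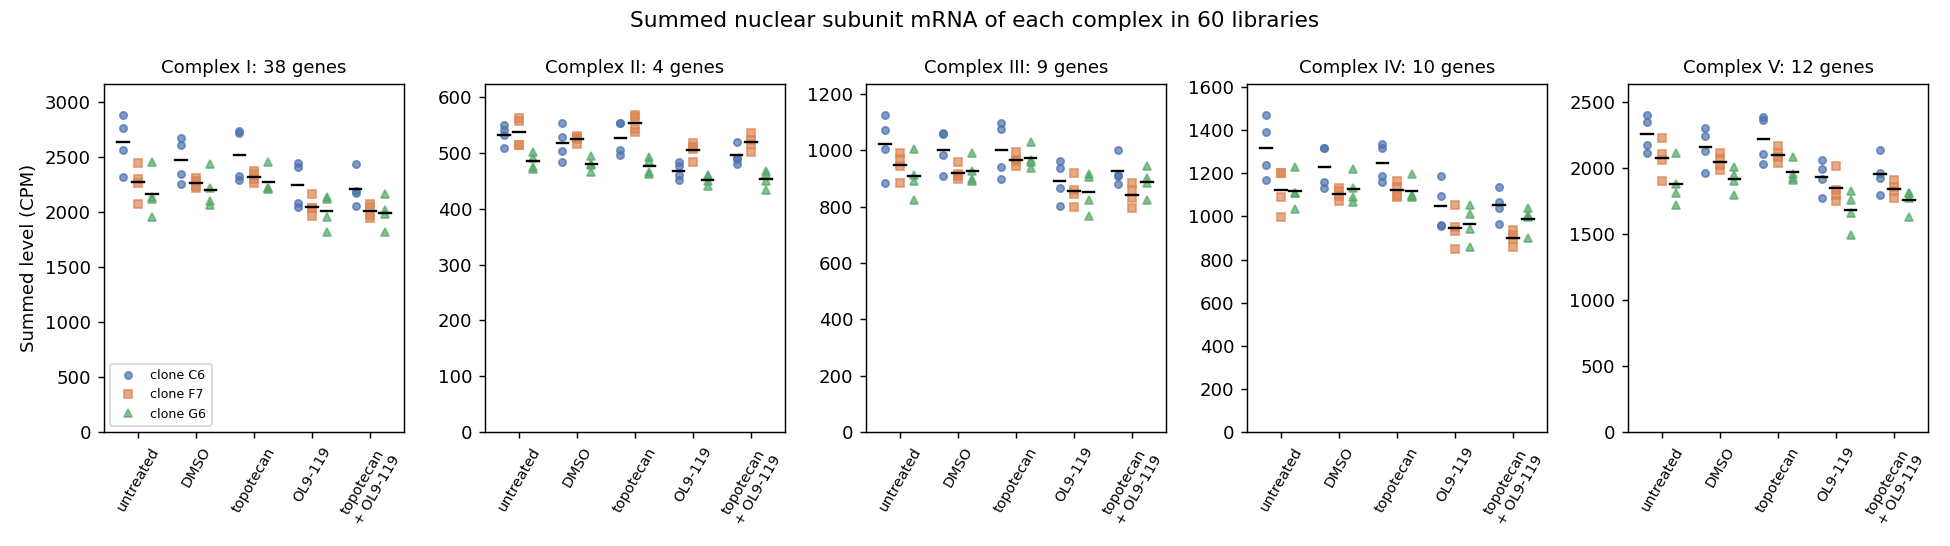
Summed CPM of the nuclear subunit mRNAs of each complex (vertical axis, from 0) by treatment (horizontal axis), 1 panel per complex. Points are libraries, with 4 per clone and treatment, and short bars are group means. The groups given OL9-119, alone or with topotecan, have lower means than DMSO and topotecan, with complex IV at -14.3 to -14.7% for OL9-119 against DMSO.

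**Figure D2:**
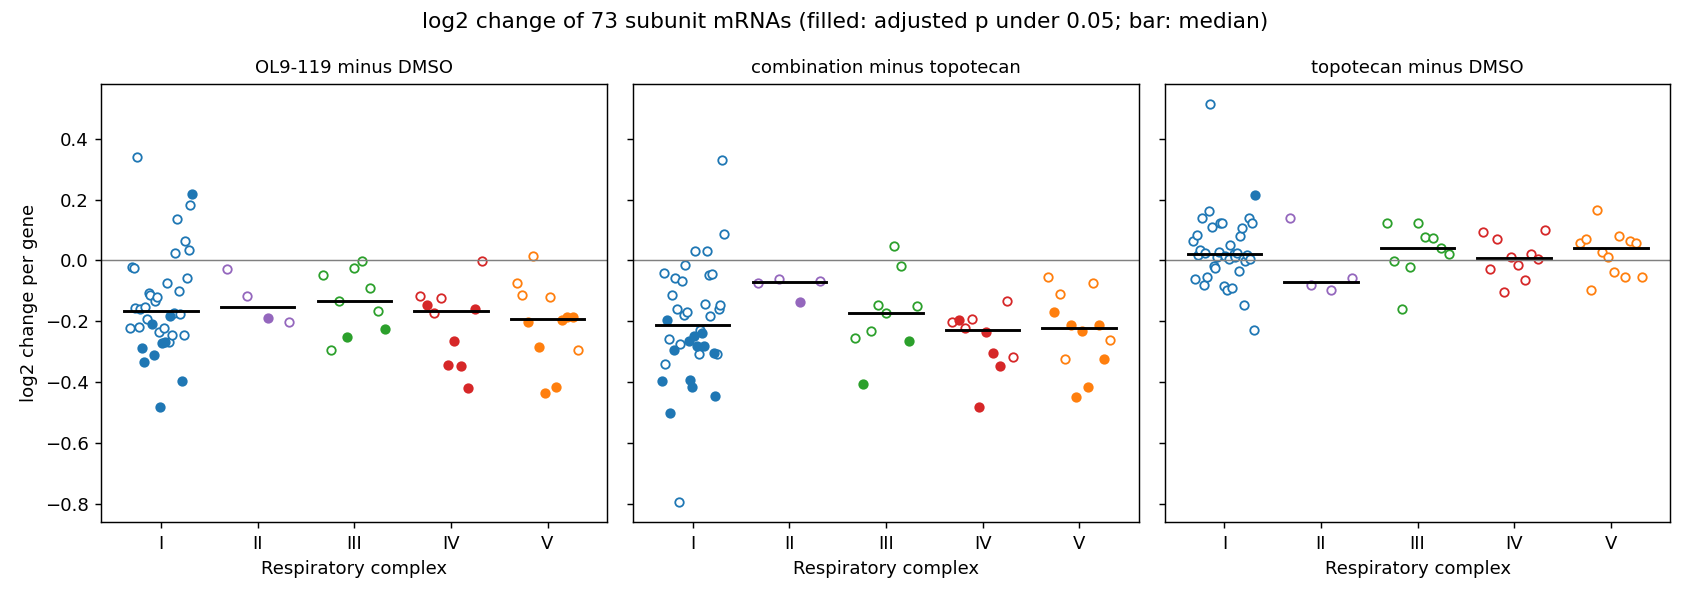
log2 change of each of the 73 mRNAs (vertical axis) by complex (horizontal axis) for OL9-119 minus DMSO, the combination minus topotecan, and topotecan minus DMSO. Filled points passed an adjusted p of 0.05 and bars are medians. In the left and middle panels 25 and 28 genes were called lower, and in the right panel none.

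Among the genes named for complex I, the called decreases lay in small accessory subunits and in NDUFA4. NDUFB3, a subunit of the membrane arm, stood at 37.03, 26.9, 33.3 and 37.8 CPM in DMSO and 24.7, 23.3, 24.7 and 16.5 CPM with OL9-119 in C6, at 30.5, 27.6, 25.04 and 28.6 against 22.3, 19.6, 24.3 and 17.0 CPM in F7, and at 27.1, 22.7, 28.96 and 27.3 against 16.6, 20.2, 21.5 and 21.4 CPM in G6. In each clone the highest OL9-119 library was below the lowest DMSO library, and the log2 change was -0.48 ± 0.08 (SE; adjusted p = 1.3e-05, edgeR). NDUFS5, an accessory subunit on the intermembrane side, ranged from 85.7 through a median of 101.6 to 130 CPM in DMSO and from 66.5 through 78.4 to 89.4 CPM with OL9-119. Again no clone's groups overlapped, and the log2 change was -0.40 ± 0.06 (adjusted p = 1.7e-06). NDUFA4 fell from a median of 103.6 CPM (80.2 to 157) to 85.9 CPM (63.8 to 115), a log2 change of -0.29 ± 0.05, with all 12 libraries below their own clone's DMSO mean.

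NDUFA5, NDUFB1, NDUFB4, NDUFB6, NDUFB9 and NDUFAB1 also fell. NDUFAB1 is the mitochondrial acyl carrier protein, shared between complex I and fatty acid and iron-sulfur cluster synthesis. NDUFA5 and NDUFB1, with -0.33 ± 0.10 and -0.31 ± 0.10 (adjusted p = 0.022 and 0.027, edgeR), had DMSO and OL9-119 libraries that overlapped in every clone.

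In the matrix arm core no change passed. None of its 7 genes was called in either direction by edgeR or by DESeq2, 1 had an unadjusted p under 0.05, and only 2 of the 7 estimates were below 0 (median 0.03). NDUFV2, 1 of the 7, has over 90% of its coding sequence overlapped, and its level is uncertain. NDUFS1, the large iron-sulfur subunit, stood at 109 to 135 CPM in DMSO (median 119) and 107 to 146 CPM with OL9-119 (median 119), and its log2 change of 0.02 had a 95% interval of -0.07 to 0.12. With topotecan present the same 7 genes had a median of -0.15, 5 were below 0, and again none was called.

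NDUFV3, an accessory subunit of the flavoprotein end, was the member that rose. Its level was 36.7 to 64.6 CPM in DMSO (median 44.5) and 41.4 to 89.6 CPM with OL9-119 (median 51.2). All 12 OL9-119 libraries were above the DMSO mean of their own clone, and the log2 change was 0.22 ± 0.05 (adjusted p = 0.0031, edgeR). It passed in 24 of 27 other fits, and not with no filter on low counts (adjusted p = 0.081), without F7 (0.069) or without the libraries numbered 1 (0.18, log2 change 0.13).

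In complex II the membrane anchor SDHC fell and the catalytic subunits were not called. SDHC went from 109 to 135 CPM (median 115) in DMSO to 88.3 to 121.7 CPM (median 101.1), log2 change -0.19 ± 0.04 (adjusted p = 0.0011, edgeR), with 12 of 12 libraries below their clone's DMSO mean. SDHA, the flavoprotein that oxidises succinate, was at a median of 265 CPM (191 to 304) in DMSO and 255 CPM (190 to 294) with OL9-119, log2 change -0.03 (95% interval -0.13 to 0.07). SDHB, the iron-sulfur subunit, and SDHD, the other anchor, gave -0.12 (-0.22 to -0.01, adjusted p = 0.19) and -0.20 (-0.47 to 0.06, adjusted p = 0.42). The interval of SDHD includes the whole of SDHC's change, so the anchors were not shown to differ.

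In complex III the called genes were small subunits. UQCRB, which lies near the quinone site, fell from a median of 147 CPM (111 to 205) to 121.4 CPM (91.1 to 172), log2 change -0.25 ± 0.07, and UQCRQ from 81.7 CPM (60.7 to 96.9) to 67.4 CPM (56.8 to 82.5), log2 change -0.22 ± 0.07 (adjusted p = 0.020 and 0.028, edgeR). For both, the DMSO and OL9-119 libraries overlapped in each clone. UQCR10 had an estimate of -0.30 ± 0.11 and did not pass (adjusted p = 0.066). None of the 4 redox or large core genes was called by edgeR or DESeq2, and none had an unadjusted p under 0.05: cytochrome c1 (CYC1) -0.05, the Rieske protein UQCRFS1 -0.09, UQCRC1 -0.02 and UQCRC2 0.00 on the log2 scale, with SEs of 0.12, 0.05, 0.10 and 0.04. With topotecan present none of the 4 was called either, though CYC1 stood at -0.26 ± 0.12.

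Complex IV held the highest share of called genes, 60% of 10, little above that of ATP synthase. With topotecan present ATP synthase had the higher share. COX7B ranged from 114 to 170 CPM in DMSO (median 132) and from 87.5 to 127.6 CPM with OL9-119 (median 103.01), a log2 change of -0.42 ± 0.06 (adjusted p = 5.8e-08, edgeR). Its groups did not overlap in C6 or F7, and in G6 the highest OL9-119 library, at 127.6 CPM, was above the 2 lowest DMSO libraries. COX7A2 gave -0.35 ± 0.05 and COX6B1, which faces the intermembrane space, -0.34 ± 0.08, with COX6B1 medians of 120 CPM in DMSO and 89.8 CPM in OL9-119. COX6C, COX7C and COX5A, the last a regulatory subunit on the matrix side, fell by 0.27, 0.16 and 0.15 on the log2 scale. COX4I1 (-0.12 ± 0.08), COX5B (-0.17), COX6A1 (-0.12) and COX8A (0.00 ± 0.18) were not called; the last of these has an interval from -0.35 to 0.35.

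ATP synthase had the lowest median, and its 3 genes for the membrane-embedded c subunit showed how members differed. ATP5MC1, ATP5MC2 and ATP5MC3 encode the same mature protein with different targeting sequences. ATP5MC3 was at 183.3, 177.03, 209.5 and 212.6 CPM in DMSO and 134.8, 156.03, 165.9 and 126.1 CPM with OL9-119 in C6, at 179.2, 171.1, 169.2 and 158.04 against 137.6, 128.5, 120.2 and 113.7 CPM in F7, and at 152.3, 157.3, 160.5 and 194.3 against 105.4, 123.6, 143.3 and 139.4 CPM in G6. No clone's groups overlapped, and the log2 change was -0.41 ± 0.06 (adjusted p = 3.2e-06, edgeR). ATP5MC1, a lower transcript with medians of 32.0 and 23.6 CPM (19.4 to 37.6 and 17.0 to 26.9), changed by -0.43 ± 0.10 (adjusted p = 0.0028). ATP5MC2 had medians of 90.3 and 90.3 CPM (70.7 to 148 and 63.9 to 141) and an estimate of -0.12 with an interval of -0.24 to 0.00; the difference between the 3 genes was not tested.

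Of the catalytic head and central stalk, ATP5F1C and ATP5F1E fell (-0.20 and -0.28), as did the peripheral stalk genes ATP5PB, ATP5PD and ATP5PF (-0.19, -0.19 and -0.18). ATP5F1A, the alpha subunit, was at 218 to 343 CPM in DMSO (median 292) and 193 to 360 CPM with OL9-119 (median 266), log2 change -0.07 (95% interval -0.16 to 0.01). ATP5F1B, the beta subunit, was at 719 to 896 CPM in DMSO (median 819) and 576 to 854 CPM with OL9-119 (median 757), log2 change -0.11 (-0.21 to -0.02, adjusted p = 0.14, edgeR). Neither passed the threshold, and their groups overlapped in each clone. ATP5F1D, the delta subunit, gave 0.01 ± 0.18.

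The same compound was also given on top of topotecan, and that comparison (combination minus topotecan) shares no library with OL9-119 minus DMSO. It called 28 of the 73 mRNAs lower and 0 higher, against 6.78% of all genes in either direction, 3.45% lower and 3.33% higher; the median was -0.21 for the members and -0.01 for all genes. Of the called genes, 13 of 38 were in complex I (NDUFA4 included), 1 of 4 in complex II, 2 of 9 in complex III, 5 of 10 in complex IV and 7 of 12 in ATP synthase. The 17 mRNAs lower in both comparisons, 65.4% of the 26 called without topotecan and 60.7% of the 28 called with it, were ATP5F1E, ATP5MC1, ATP5MC3, ATP5PD, ATP5PF, COX5A, COX6B1, COX6C, COX7A2, COX7B, NDUFA4, NDUFB3, NDUFB4, NDUFB6, NDUFB9, NDUFS5 and SDHC. Over all genes 399 (2.1%) were called lower in both. Estimates were below 0 in both for 63 of 73 members and for 29.8% of all genes. Across the 73 genes, which share libraries and are not independent, the estimates had a Pearson correlation of 0.45 and a Spearman correlation of 0.40.

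**Figure D3:**
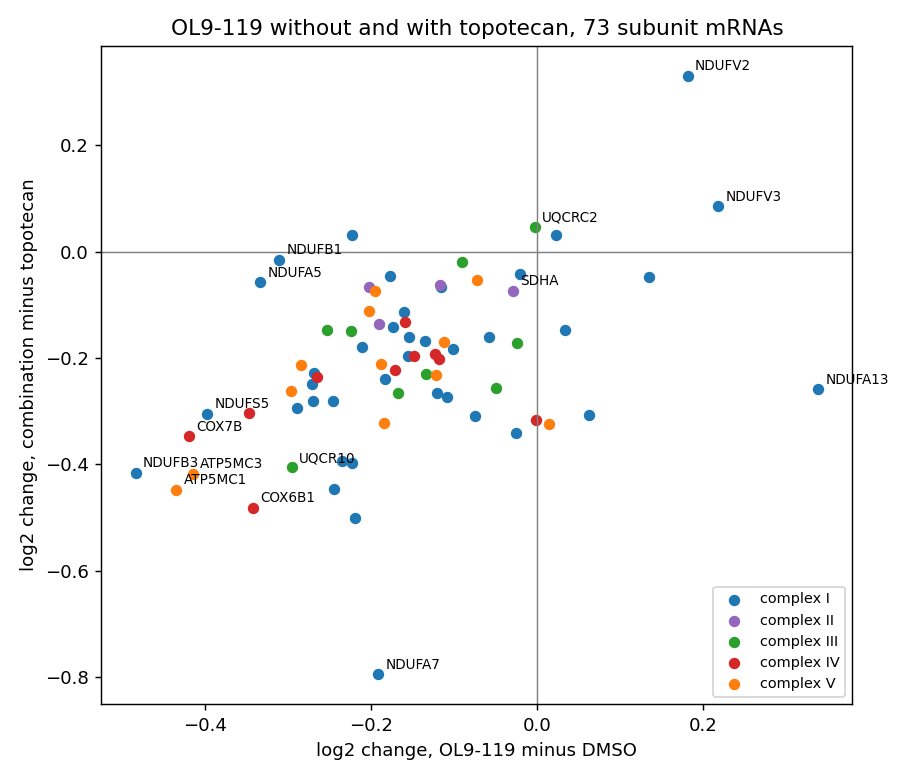
log2 change of each of the 73 mRNAs for OL9-119 minus DMSO (horizontal axis) and for the combination minus topotecan (vertical axis), coloured by complex. 63 of the 73 points lie below 0 on both axes; NDUFA7, NDUFA13 and NDUFV2, at the edges, are the 3 least abundant members.

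Among the decreases with topotecan present, NDUFA2 (-0.50), COX6B1 (-0.48), ATP5MC1 (-0.45), NDUFS6 (-0.45), ATP5MC3 (-0.42) and NDUFB3 (-0.42) were the largest that passed. COX6B1 ranged from 92.1 to 153 CPM with topotecan (median 120.8) and from 52.8 to 110 CPM with the combination (median 86.1), with 12 of 12 libraries below their clone's topotecan mean (-0.48 ± 0.08, adjusted p = 4.4e-05, edgeR). NDUFS6, a zinc-binding subunit of the matrix arm, ranged from 92.5 to 175 CPM (median 121.4) and from 58.0 to 135 CPM (median 92.7). Its change was -0.45 ± 0.09 (adjusted p = 5.0e-04), where OL9-119 alone gave -0.24 (adjusted p = 0.077). ATP5MC2 and ATP5F1B passed in this comparison, at -0.23 and -0.17, and NDUFA5 and NDUFB1 were near 0, at -0.06 and -0.02.

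Whether topotecan altered the response to OL9-119 was tested by the interaction. edgeR called 0 of 73 members (0.0316% of all genes were called); 3 members, among them NDUFB1 and NDUFB5, had an unadjusted p under 0.05, each with an adjusted p of 0.74, and DESeq2 also called 0. The lists with and without topotecan are therefore not shown to differ for any member.

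Against DMSO the combination lowered 29 members and raised 2, NDUFV3 (0.30 ± 0.05) and UQCRC2 (0.13 ± 0.04), where 21.2% of all genes were called, 11.7% lower and 9.52% higher. NDUFB3 (-0.50), COX6B1 (-0.47), ATP5MC1 (-0.44), NDUFS6 (-0.43), UQCR10 (-0.41) and UQCR11 (-0.39) gave the largest decreases. The coding sequence of UQCR11 is wholly overlapped by another gene. This comparison shares its DMSO libraries with OL9-119 minus DMSO.

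Topotecan alone left the subunit mRNAs close to their DMSO levels. 1 of 73 was called, NDUFV3, at 40.6 to 72.9 CPM (median 53.3) against 36.7 to 64.6 CPM in DMSO, log2 change 0.22 ± 0.05 (adjusted p = 0.0018, edgeR), while 15.3% of all genes were called, 9.35% lower and 5.99% higher. The median log2 change was 0.02 for the members and 0.02 for all genes. SDHA gave 0.14 ± 0.05 (adjusted p = 0.052) and NDUFA7, at under 1 CPM on average, the highest estimate. The combination differed from OL9-119 alone in 3 members, all higher with topotecan: NDUFB1 (0.31 ± 0.10), UQCRFS1 (0.15 ± 0.05) and UQCRC2 (0.13 ± 0.04), where 12.7% of all genes were called, 7.72% lower and 5% higher. DMSO against no treatment gave 0 called members in edgeR and in DESeq2 and 0 with an unadjusted p under 0.05, beside 0.0158% of all genes called.

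The decrease after OL9-119 had nearly the same size in the 3 clones. Clone C6 had a member median of -0.18, F7 one of -0.18 and G6 one of -0.17, beside medians of 0.03, 0.00 and 0.01 for all genes. In all 3 clones 50 of 73 members had an estimate below 0, which 19.8% of all genes did, and with topotecan present 60 of 73, which 24% of all genes did. The F test for a difference between clones called 0 of 73 members for OL9-119 and 0 for topotecan, with 0 at an unadjusted p under 0.05 in edgeR and 0 in DESeq2; it called 0.0263% and 0.137% of all genes.

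Shares of all genes called are not given for the fits that follow, so a change in the members cannot be told from one over all genes. The number of members called depended on which libraries were used. For OL9-119 minus DMSO it was 30 without the 14 low-detection libraries, 18 without clone C6, 12 without F7 and 16 without G6. Leaving out all libraries numbered 2, 3 or 4 gave 16, 12 and 17, and leaving out replicate 3 of F7 gave 17. For the combination minus topotecan it was 14 without the low-detection libraries, a fit in which C6 keeps 1 combination library, 7 without F7, and 12 and 14 without the libraries numbered 2 or 3. NDUFB3, NDUFB4, NDUFS5, NDUFA4, COX6C, COX7A2, COX7B, ATP5F1E and ATP5MC3 stayed called for OL9-119 in each of the 27 other fits; The other members passed less often: SDHC in 26, ATP5MC1 and COX6B1 in 25, ATP5PB in 24, UQCRB in 21, NDUFA5 in 20, COX5A in 19, ATP5F1C in 17, ATP5PF in 15, NDUFB6 in 14, NDUFB1, ATP5PD and UQCRQ in 13, COX7C and NDUFAB1 in 12 and NDUFB9 in 9 of the 27.

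Coding length sorted the members. Of the 40 members with a coding sequence of at most 450 nt, 19 were called lower after OL9-119 and 1 higher, with a median of -0.22; of the 22 with more than 450 and up to 900 nt, 6 were lower (median -0.16); and of the 11 with more than 900 nt, none was called and the median was -0.02. All protein-coding genes tested gave medians of -0.12, -0.04 and 0.02 in the same length classes (977, 2859 and 10849 genes), with 194, 292 and 420 called lower. Spearman's rho between coding length and change was 0.55 over the 73 members and 0.17 over 14685 protein-coding genes, and with topotecan present 0.51 and 0.17. Other measures of length gave weaker relations for the members after OL9-119, with a rho of 0.24 for mRNA length, 0.24 for merged exon length and 0.13 for genomic span. With topotecan present these were 0.48, 0.47 and 0.34, so coding length (0.51) stood little apart from mRNA length there. Over all protein-coding genes in that comparison, genomic span had a rho of 0.24, above the 0.17 of coding length. These are descriptions across genes. The 11 long members are mostly catalytic, redox or core proteins, such as NDUFS1, SDHA, UQCRC1 and ATP5F1B, so length and role cannot be told apart here.

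**Figure D4:**
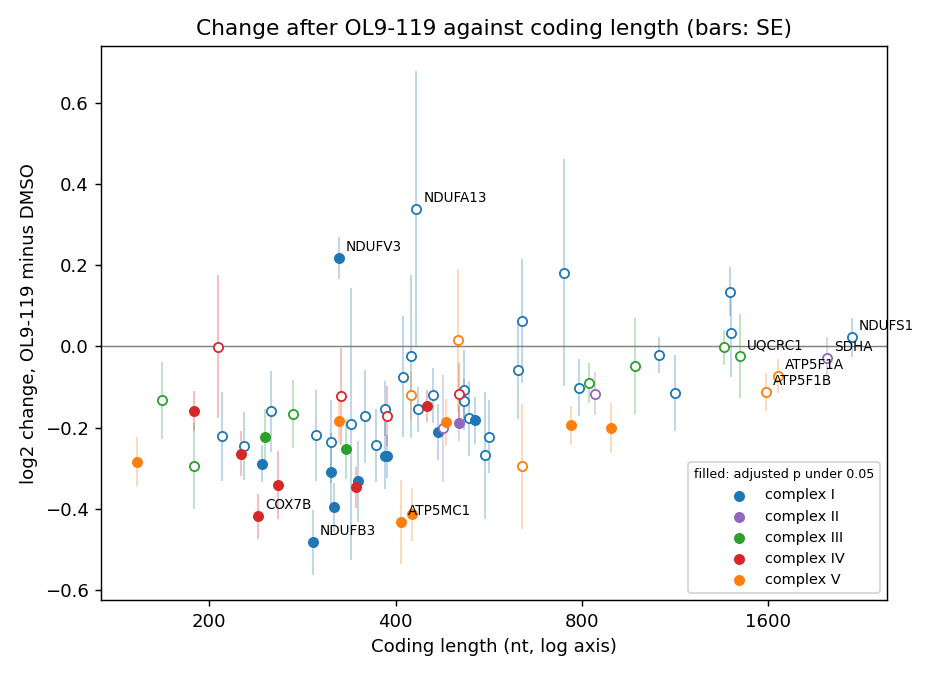
log2 change after OL9-119 relative to DMSO (vertical axis, bars are SE) against coding length (horizontal log axis) for the 73 mRNAs. Filled points passed an adjusted p of 0.05. The 11 members longer than 900 nt have a median of -0.02, and the called decreases lie at shorter lengths.

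Because many members moved together, the 250 bases upstream of the annotated start are shown for 4 of them: NDUFB3 and ATP5MC1, the largest decreases of complex I and ATP synthase, COX6B1, the largest called decrease of complex IV when OL9-119 was added to topotecan, and NDUFV3, which rose. The sequences are from a set of RefSeq promoters (GRCh38.p14), at chr2:201071751-201072000, chr17:48892537-48892786, chr19:35648073-35648322 and chr21:42893059-42893308, all on the plus strand. The set used here covered 60 of the 73 members. Among those it lacked were ATP5MC3, NDUFS5, NDUFA4 and SDHC, which OL9-119 lowered, so the shares of matches below leave them out. Capitals mark matches, on either strand, to the 7 letter patterns searched: the NRF1 consensus, CCGGAAG (ETS family), AAGATGGCG (YY1), GGGCGG (SP1 family), AAGGTCA (estrogen-related receptor), CCAAT (NF-Y) and TGATGNAA (ATF4 with C/EBP).
NDUFB3: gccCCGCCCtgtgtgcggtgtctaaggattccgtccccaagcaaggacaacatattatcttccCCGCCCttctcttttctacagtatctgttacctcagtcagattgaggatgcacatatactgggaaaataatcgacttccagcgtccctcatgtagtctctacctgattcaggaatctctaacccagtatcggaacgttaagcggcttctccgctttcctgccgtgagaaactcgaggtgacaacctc
ATP5MC1: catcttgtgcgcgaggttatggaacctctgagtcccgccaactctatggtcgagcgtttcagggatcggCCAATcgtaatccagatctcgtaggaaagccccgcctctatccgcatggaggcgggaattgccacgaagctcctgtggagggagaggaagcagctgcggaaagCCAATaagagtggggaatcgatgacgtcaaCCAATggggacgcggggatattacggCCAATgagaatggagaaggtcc
COX6B1: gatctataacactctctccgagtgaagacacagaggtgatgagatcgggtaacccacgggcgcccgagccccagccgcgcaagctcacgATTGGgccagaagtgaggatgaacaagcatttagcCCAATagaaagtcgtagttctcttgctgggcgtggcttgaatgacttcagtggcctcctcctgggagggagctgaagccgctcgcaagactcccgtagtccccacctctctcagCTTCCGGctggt
NDUFV3: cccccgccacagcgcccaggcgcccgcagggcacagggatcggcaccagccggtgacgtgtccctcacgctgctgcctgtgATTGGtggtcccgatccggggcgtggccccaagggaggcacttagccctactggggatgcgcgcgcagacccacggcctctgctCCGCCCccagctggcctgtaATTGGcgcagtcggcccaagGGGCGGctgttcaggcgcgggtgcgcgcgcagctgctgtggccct
NDUFB3 holds GGGCGG matches only, ATP5MC1 holds repeated CCAAT matches, COX6B1 holds CCAAT and CCGGAAG, and NDUFV3 holds CCAAT and GGGCGG.

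Over windows of 300 bases (250 before and 50 after the start), the NRF1 pattern was in 23.3% of the 60 members and 11.9% of 12842 tested genes with a window. NRF1 is a factor known for driving respiratory chain genes. AAGATGGCG was in 15% against 4.05%, AAGGTCA in 15% against 3.79%, CCGGAAG in 30% against 20%, GGGCGG in 65% against 74.1%, CCAAT in 33.3% against 42.6% and TGATGNAA in 3.33% against 2.9%. Among the 18 members with a window that OL9-119 lowered, the NRF1 pattern was in 11.1%, AAGATGGCG in 5.56%, GGGCGG in 50% and CCAAT in 44.4%, while the 42 other members had 28.6%, 19%, 71.4% and 28.6%. A match is a description of letters, and these shares were not tested.

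Other genes of the same organelle did not all move with the subunits. Over all genes OL9-119 minus DMSO called 5% lower and 4.47% higher, and the combination minus topotecan 3.45% and 3.33%. Of the 13 mRNAs encoded in mitochondrial DNA, which supply the core of complexes I, III, IV and V, 12 fell after OL9-119 (median -0.50), from -2.06 ± 0.09 in MT-ND5 to -0.32 ± 0.10 in MT-ND2, and MT-ND1 did not pass (-0.20). ATP synthase subunits and the inhibitor outside the 12 genes above followed the members in part: 3 of 7 fell, the membrane subunits ATP5MJ (-0.36), ATP5MK (-0.32) and ATP5MF (-0.34). With topotecan present 5 of 7 fell, among them ATP5MG (-0.38) and the inhibitor ATP5IF1 (-0.26).

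Of the enzymes of the tricarboxylic acid cycle 0 of 14 were called by edgeR, 2 with an unadjusted p under 0.05, and their median was -0.02. Assembly factors went in both directions: for complex I 1 of 19 was lower (COA1, -0.19), for complex II 1 of 4 higher (SDHAF4, 0.70 ± 0.11), for complex III 1 of 7 lower (LYRM7, -0.36), for ATP synthase 1 of 3 lower (ATPAF1, -0.21), and for complex IV 4 of 24 lower and 3 higher. The complex IV factors included COX17 (-0.38) and COA3 (-0.45), which fell, and COX19 (0.32) and COX10 (0.41), which rose. COX17 and COX19 are small proteins involved in copper delivery, and COX10 makes heme O. Electron carriers and coenzyme Q enzymes had 2 of 17 lower, cytochrome c (CYCS, -0.39 ± 0.09) and COQ3 (-0.33). Of 4 tested tissue isoforms and relatives of complex IV subunits 1 was lower, COX7A2L (-0.15).

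Regulators of mitochondrial biogenesis had 3 of 13 higher and 0 lower: MYC (0.50 ± 0.10), TFB1M (0.49), a mitochondrial rRNA methyltransferase, and PPARGC1A (0.63), the PGC-1 alpha coactivator. Mitochondrial chaperones and proteases had 2 of 13 lower, the folding partners HSPE1 (-0.73 ± 0.09) and HSPD1 (-0.21), and 1 higher, DNAJA3 (0.16). After topotecan alone 0 of the 13 mitochondrially encoded mRNAs passed in edgeR (3 with an unadjusted p under 0.05), beside 15.3% of all genes. MYC rose after topotecan (0.54).

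The clones differed from each other in DMSO, without treatment by either compound. C6 against F7 called 26 members (22 higher in C6, 4 lower), where 39.5% of all genes were called (20.4% higher, 19.2% lower); C6 against G6 called 18 (16 higher, 2 lower), where 24.4% were called (11.6% higher, 12.8% lower); and F7 against G6 called 9 (4 higher in F7, 5 lower), where 17.1% were called (6.89% higher, 10.2% lower). Median differences were 0.12, 0.16 and 0.03 for the members and -0.05, -0.02 and 0.01 for all genes. Without the low-detection libraries, which are mostly from C6, the counts were 29, 25 and 14, and the shares of all genes called in that fit are not given.

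NDUFA5 showed the largest difference between C6 and F7, with 75.1 to 115 CPM in the 4 DMSO libraries of C6, 40.6 to 54.6 CPM in F7 and 50.6 to 89.2 CPM in G6, and a log2 difference of 1.06 ± 0.18 (adjusted p = 1.8e-06, edgeR). C6 and F7 did not overlap, and G6 lay between them. NDUFB2 showed the largest called difference between C6 and G6 (0.88 ± 0.18), with 38.6 to 75.8 CPM in C6, 28.01 to 33.6 CPM in F7 and 26.9 to 39.2 CPM in G6. Between F7 and G6 it was SDHD, one of the overlapped genes, with 20.6 to 28.3 CPM against 25.7 to 53.5 CPM (-0.68 ± 0.23, adjusted p = 0.032).

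ATP5MC2, the c subunit gene with the smallest estimate after OL9-119, was at 118 to 148 CPM in C6, 70.7 to 81.0 CPM in F7 and 85.3 to 108 CPM in G6. Its C6 libraries were above those of both other clones (0.81 ± 0.11 and 0.54 ± 0.11). SDHA was lowest in G6, at 191 to 244 CPM, and did not overlap F7 at 281 to 295 CPM (0.42 ± 0.09 for F7 minus G6). NDUFC1 was lower in C6 than in both others (-0.56 ± 0.15 and -0.49 ± 0.15), at 22.4 to 30.7 CPM against 34.7 to 42.97 and 31.9 to 42.1 CPM.

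Differences that involve C6 were set beside those of other genes on the same chromosome, and the 4 chromosomes named here were chosen after their values were seen. On chromosome 7, NDUFA4, NDUFA5 and NDUFB2 were all higher in C6 than in F7 and in G6, where the median of 672 other protein-coding genes was 0.22 and 0.37. On chromosome 21, NDUFV3 and ATP5PF were higher in C6 than in F7 by 0.60 and 0.74, beside a median of 0.39 for 134 other genes. On chromosome 11, NDUFV1 and NDUFS3 were lower in C6 than in F7 by -0.50 and -0.46, beside a median of -0.51 for 846 genes, while against G6 none of the 6 members on chromosome 11 was called beside a median of -0.52. Chromosome 16 was mixed: for C6 minus F7 its 4 members had a median of 0.14 beside -0.36 for 657 other genes. UQCRC2 was called higher (0.25), and COX4I1 was called lower (-0.36), at the value of its chromosome. Over the 73 members, the difference and the median of the gene's chromosome had a Pearson correlation of 0.49 for C6 minus F7, 0.56 for C6 minus G6 and 0.12 for F7 minus G6, given as descriptions since members of a chromosome share that median. Of the called members 20 of 26, 15 of 18 and 4 of 9 had the sign of their chromosome. No share of other genes stands beside these counts. Most calls were higher in C6 whatever the chromosome (22 of the 26 and 16 of the 18), so the counts are descriptions only. The part of chromosome number in these differences was not tested.

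**Figure D5:**
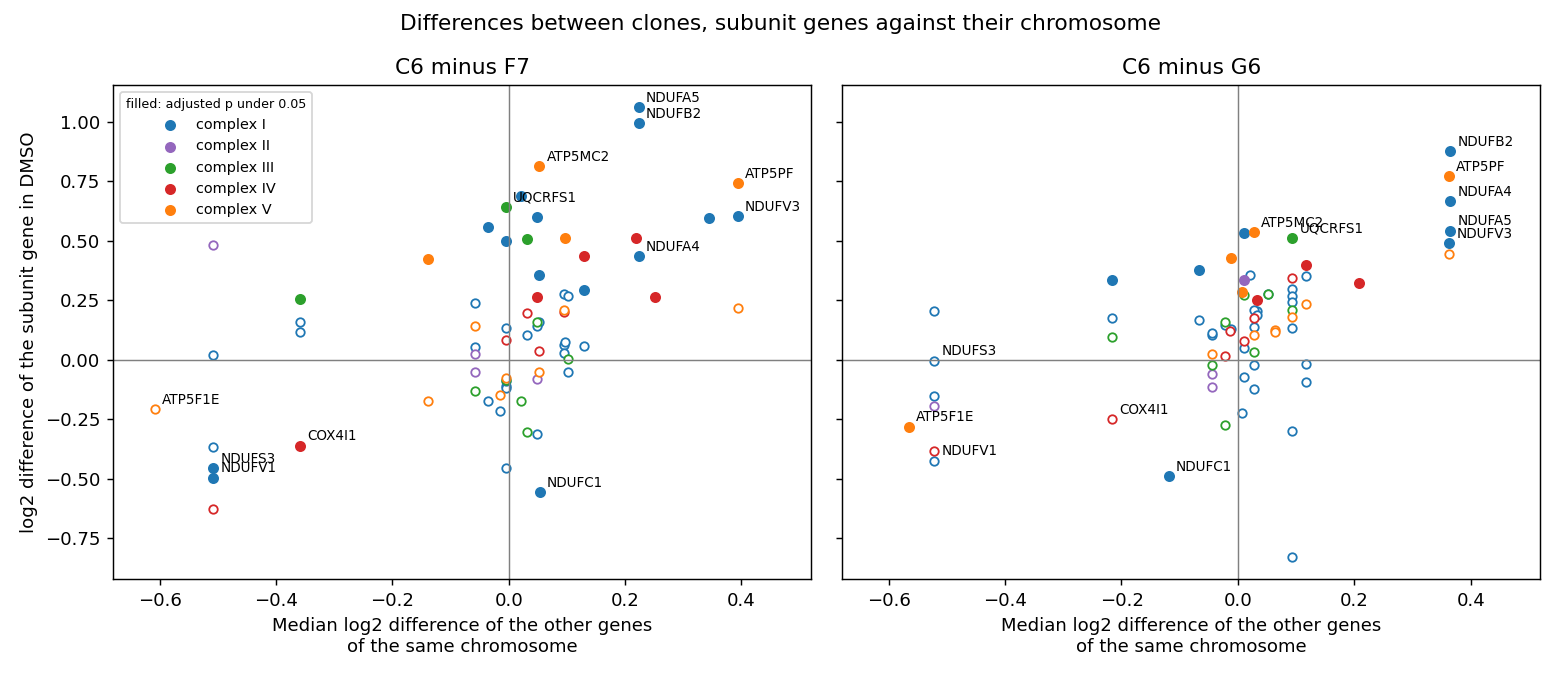
log2 difference between clones in DMSO of the 73 genes (vertical axis) against the median log2 difference of the other protein-coding genes on the same chromosome (horizontal axis), for C6 minus F7 and C6 minus G6. Filled points passed an adjusted p of 0.05. The chromosome 7 genes NDUFA4, NDUFA5 and NDUFB2 lie at 0.22 and 0.37 on the horizontal axis, and the chromosome 11 genes at -0.51 in the left panel.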

How the data were processed

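The authors deposited unnormalized counts for each Ensembl gene in 60 libraries; per the labels' protocols these were poly(A) libraries from a directional kit. Tools listed by the submitters' processing notes are STAR 2.7.8, Picard 2.26.6 and FastQC 0.11.9, with hg38 as the build; no source used here names a counting tool, its annotation or its strand setting. Symbols, lengths, overlaps and chromosomes came from GENCODE 29. Genes past filterByExpr (18985) were fitted with edgeR 4.0.16 (quasi-likelihood, TMM, R 4.3.3), 1 mean per group, all 60 libraries. Treatment comparisons average the 3 clones, p-values are 2-sided and adjusted over all genes tested, and the threshold is 0.05. A value after ± is an SE. The fit was also run on simulated counts drawn independently for each library. That run does not check the variation shared by libraries of the same replicate number. CPM uses TMM library sizes; gene annotation was checked on the coding sequence of a principal transcript. Depth was 4.62 to 20.9 M counts, which limits the 3 members near 1 CPM most. DESeq2 1.42.0, other scalings and left-out libraries were tried. Named genes are the largest called changes per comparison, extremes per complex, SDHA to SDHD, the c subunit genes and NDUFA4. The members and lists were chosen with earlier results of these data known. Whether replicates were separate cultures is not stated beyond "biological", so p-values measure the spread between these libraries.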

Additional observations from a re-analysis of the deposited data

Results flagged for a closer look

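In clone G6 after topotecan, replicate 4 stood apart from the other 3 libraries for 2 complexes: its summed complex I mRNA was 2451 CPM against 2205 to 2221 CPM, and its summed complex IV mRNA was 1198 CPM against 1089 to 1099 CPM. The gap of the highest library, divided by the range of the group, passed Dixon's 95% critical value for 4 samples. 75 groups were checked, of which chance would mark about 1 in 20, and 2 passed. Leaving out this replicate number in G6 gave 2 called members for topotecan minus DMSO in place of 1.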

How the results depend on the processing

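Counts of called members are given for each change of processing that moved them by more than 1.5 times. For OL9-119 minus DMSO (26) they were 16 with no filter on low counts, 12 without clone F7 and 16 without clone G6. For the combination minus DMSO (31) they were 20 without the low-detection libraries and 14 without F7, and for the combination minus topotecan (28) 14 and 7. For the combination minus OL9-119 (3) they were 0 without the low-detection libraries, 1 without C6 and 0 without G6. For topotecan minus DMSO (1) they were 2 with RLE or upper-quartile scaling, with the name prefix of the libraries as a covariate or with DESeq2, 3 with only the groups compared, 4 without the low-detection libraries and 0 without G6. For C6 minus G6 (18) the count was 10 with only the groups compared, and for F7 minus G6 (9) it was 14 without the low-detection libraries. Leaving out a replicate number or a single replicate of a clone, in 16 fits, gave 1 to 3 for topotecan minus DMSO, 12 to 29 for OL9-119, 21 to 31 for the combination minus DMSO, 12 to 31 for the combination minus topotecan, 0 to 3 for the combination minus OL9-119, 21 to 28 for C6 minus F7, 10 to 19 for C6 minus G6, 2 to 15 for F7 minus G6, and 0 for DMSO minus untreated, the interaction and clone dependence. The cause of these shifts was not tested. Shares of all genes called in these fits are not given, so a shift in the members cannot be told from one over all genes. Counting only the 61 members with no coding overlap, an alternative added after seeing the data, gave 26 for OL9-119 and 28 for the combination minus topotecan. The member median for OL9-119 ran from -0.18 to -0.12 over all 27 alternatives. Of the named members' changes that passed the threshold, none passed it with the opposite sign in any fit.

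The replicate numbers were not taken to pair the libraries, since the labels tie no number to a shared culture or day and only some same-numbered pairs of a clone had correlated deviations: 46 of 120 above 0.1 (median r 0.04), against 36 of 360 differently numbered pairs (median r -0.01). In C6 it was 17 of 40 against 25 of 120 and in F7 9 of 40 against 2 of 120. In G6 it was 20 of 40 against 9 of 120, so some shared variation by number is seen in each clone. Same-numbered libraries of a clone also share a name prefix, whose meaning the labels do not give. With the replicate number as a block, 38 members were called for OL9-119, 42 for the combination minus DMSO, 39 for the combination minus topotecan, 6 (4 higher, 2 lower) for the combination minus OL9-119 and 2 for topotecan minus DMSO. Genes described as not called that the block called included NDUFS3 (adjusted p = 0.015, edgeR), NDUFS7 (0.046) and CYC1 (0.045) for the combination minus topotecan. For OL9-119 they included COX5B (0.032) and ATP5F1B (0.028). All of those named here were lower.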
